A study of Mus musculus with 42 samples.

Results

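Nuclear factor κB (NF-κB) turns on the genes of its own inhibitors, and these transcripts are widely read as a record of how strongly the pathway has fired. The 10 genes described here are 3 subunit genes of NF-κB (Nfkb1, Nfkb2 and Relb) and 7 genes of its feedback and modulating proteins (Nfkbia, Nfkbiz, Bcl3, Tnfaip3, Tnip1, Birc3 and Zc3h12a). They were taken by gene name from the 12 tables of normalized counts of an RNA sequencing (RNA-seq) study of the mouse colon, and are 10 of the 12186 named genes present in every table. Each of the 10 had a mean of at least 10 normalized reads in every table, so none was lost to the filter on low counts.

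The study asked how bone morphogenetic protein (BMP) signaling in stromal cells affects goblet cells, and whether interleukin-1 (IL-1) and IL-17A act on the epithelium. All mice carried Gli1-CreERT2, a Cre recombinase that tamoxifen switches on in cells expressing Gli1, and were injected with tamoxifen and sampled at day 30. Goblet cells were sorted as Muc2-mCherry positive cells from GWTM2 mice (Gli1-CreERT2 with no floxed gene), GS4M2 mice (Smad4 fl/fl) and GA3M2 mice (Alk3 fl/fl), and stromal cells were sorted as tdTomato positive cells from GWTT, GS4T and GA3T mice, which carried the Rosa26-tdTomato reporter and the same 3 genotypes. Both were taken from the proximal and from the distal colon, with 2 libraries per group. The Cre acts in Gli1-expressing cells, so recombination is aimed at the stroma and not at goblet cells, whereas tdTomato marks stromal cells that recombined. Wild-type colonic organoids, which are epithelium grown without stroma, were given 10 nM IL-1 (IL-1a and IL-1b), 10 nM IL-17A or neither, and were collected after 12 h or 72 h with 3 libraries per group. The labels do not say whether libraries of a group came from separate mice or cultures, so each p-value measures only the spread between these libraries, which may be technical. In such bulk samples, fewer cells expressing a gene and less RNA per cell cannot be told apart.

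In resting cells NF-κB dimers are held in the cytoplasm by IκBα, the product of Nfkbia. A receptor such as those for IL-1 activates the IκB kinases through adaptor proteins and ubiquitin chains, IκBα is destroyed, and the dimers enter the nucleus and bind κB sites. Among the genes they induce are IκBα itself, which ends the signal, Tnfaip3 (A20, a ubiquitin-editing enzyme), Tnip1 (ABIN1, a partner of A20), Birc3 (cIAP2, a ubiquitin ligase of the receptor complexes), Nfkbiz (IκBζ) and Bcl3 (nuclear IκB proteins that act at promoters) and Zc3h12a (Regnase-1, a ribonuclease that cuts the transcripts of inflammatory genes). Nfkb1 encodes p105, the precursor of p50. Nfkb2 encodes p100, the precursor of p52, and RelB is the usual partner of p52 in the noncanonical branch of the pathway. The receptor for IL-17A uses other adaptors and is known for a strong effect on the stability of inflammatory transcripts in epithelial cells.

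All 10 are protein-coding genes on separate loci of GRCm38 (mm10), except that Relb and Bcl3 lie near each other on the minus strand of chromosome 7, at chr7:19606217-19629438 and chr7:19808462-19822770. To show what the κB sites of such genes look like, the RefSeq promoter windows of GRCm38.p6, each 250 bases before and 50 bases after a gene start, were searched on both strands for the κB consensus. Of the members, 7 had windows in the table (no entry: Nfkb1, Relb and Nfkbiz), and 5 of the 7 held at least 1 match (Nfkbia, Tnip1, Tnfaip3, Nfkb2 and Bcl3), whereas Zc3h12a and Birc3 held none. Over all genes with a window 9.55% held a match, and among those measured in the organoids 12.1% did. The windows of 4 members with matches and of Zc3h12a, the member with one of the largest responses to both cytokines, are printed in the direction of transcription with every κB match in capitals. A match describes the letters of the window only and was not tested for binding.
Nfkbia, chr12:55492598-55492897, minus strand, with the match starting 29 bases before the start: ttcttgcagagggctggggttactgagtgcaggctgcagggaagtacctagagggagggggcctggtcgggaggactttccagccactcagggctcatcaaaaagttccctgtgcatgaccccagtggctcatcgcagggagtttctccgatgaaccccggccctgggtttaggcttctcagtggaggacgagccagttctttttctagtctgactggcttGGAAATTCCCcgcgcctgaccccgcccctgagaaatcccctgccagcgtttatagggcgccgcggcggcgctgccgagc
Tnip1, chr11:54962891-54963190, minus strand, with overlapping matches from 58 bases before the start: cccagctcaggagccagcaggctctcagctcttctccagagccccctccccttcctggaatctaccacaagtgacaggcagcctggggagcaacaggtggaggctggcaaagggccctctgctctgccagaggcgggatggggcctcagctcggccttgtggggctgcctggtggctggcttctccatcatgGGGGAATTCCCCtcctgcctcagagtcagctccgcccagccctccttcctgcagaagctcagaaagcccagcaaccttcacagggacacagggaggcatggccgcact
Tnfaip3, chr10:19015361-19015660, minus strand, with matches from 125 and from 12 bases before the start: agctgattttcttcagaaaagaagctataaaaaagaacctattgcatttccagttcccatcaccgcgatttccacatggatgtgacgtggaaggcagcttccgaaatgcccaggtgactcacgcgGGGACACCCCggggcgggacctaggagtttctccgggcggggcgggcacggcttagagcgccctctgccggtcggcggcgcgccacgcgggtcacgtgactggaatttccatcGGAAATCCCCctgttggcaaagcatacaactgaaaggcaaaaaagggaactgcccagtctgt
Nfkb2, chr19:46304487-46304786, plus strand, with matches from 39 and from 11 bases before the start: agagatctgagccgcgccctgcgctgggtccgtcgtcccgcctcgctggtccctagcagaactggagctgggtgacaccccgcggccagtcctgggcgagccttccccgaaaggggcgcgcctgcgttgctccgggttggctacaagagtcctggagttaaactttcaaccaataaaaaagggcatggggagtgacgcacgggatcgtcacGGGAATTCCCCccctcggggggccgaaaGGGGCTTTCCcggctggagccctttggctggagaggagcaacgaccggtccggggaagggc
Zc3h12a, chr4:125127832-125128131, minus strand, with no match: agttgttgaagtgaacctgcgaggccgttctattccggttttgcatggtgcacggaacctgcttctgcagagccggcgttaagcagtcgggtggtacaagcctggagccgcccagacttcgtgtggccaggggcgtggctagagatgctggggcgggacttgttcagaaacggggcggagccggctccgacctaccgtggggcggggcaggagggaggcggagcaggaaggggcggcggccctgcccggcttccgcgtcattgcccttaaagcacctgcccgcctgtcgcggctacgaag

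The depth was 14222902 to 23686940 reads on genes per library (median 17158199). The 42 labelled libraries hold 40 distinct ones: 2 of the 3 control libraries labelled 12 h, replicates 2 and 4, hold the same reads as the control libraries labelled 72 h, replicates 1 and 4. A further 3 pairs (IL-1 at 12 h replicates 3 and 4, IL-17A at 12 h replicates 3 and 4, control at 72 h replicates 2 and 4) were far more alike than other libraries of 1 group, with a mean chi-square per gene of 3.03 to 3.32 against 18 to 212.0. The members of such a pair still differed by more than sampling noise and were kept apart, and each result was also computed with the pair averaged. Control replicate 2 at 72 h was as close to control replicate 4 at 12 h (3.3). Each control labelled 72 h was thus the same as, or near-identical to, 1 labelled 12 h. Which time these libraries belong to cannot be told, so the 72 h controls are not clearly separate from those of 12 h. By Xist and Y-linked genes, 8 of the 18 groups were of 1 sex: all GS4M2 and GA3M2 libraries were male, all GS4T and both distal GWTT libraries female, and the IL-17A libraries at 72 h male. In the other organoid groups, 2 of the 3 libraries of each cytokine at 12 h but only 1 of the 3 controls were female, and at 72 h 2 of the 3 controls and 1 of the 3 IL-1 libraries were. Smad4 in GS4T cells fell in both segments (log2 fold change -1.09, adjusted p = 0.01 in proximal cells and -0.96, adjusted p = 0.042 in distal cells, limma), and Bmpr1a, which encodes ALK3, had log2 fold changes of -0.61 and -0.69 in GA3T cells (adjusted p = 0.12 and 0.1). In goblet cells, at which the deletion is not aimed, Bmpr1a was at -0.50 and -0.31 in proximal and distal GA3M2. It was at -0.34 and -0.32 in GS4M2, where Smad4 was at 0.02 and -0.09, and none of these was called. Markers of the labelled cell types were present. The 9 fibroblast markers summed to 42213.7 to 58564.2 counts scaled to library depth (CPM) in the stromal libraries and to at most 33.2 in goblet libraries. The 13 goblet and epithelial markers summed to 36909.6 to 69540.5 CPM in GWTM2, 42015.3 to 56432.8 in GS4M2 and 18827.2 to 29281.2 in GA3M2. They reached at most 2056.6 in stromal libraries. In the organoids, 7 of 8 neutrophil markers and 7 of 10 macrophage markers had no reads or no row. Here and below, a marker with no row in a deposited table is counted as without reads. The tables hold different rows, so marker sums taken from separate tables are not strictly comparable. Muc2, whose reporter was used for the sort, was itself lower in proximal GA3M2 than in GWTM2 cells (log2 fold change -3.63, adjusted p = 0.046, limma).

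Compared per length, as reads scaled by exon length and by library depth (RPKM), Nfkbia was the most abundant of the 10 transcripts in all 4 control groups of sorted cells and in the organoids with and without cytokine. It stood at 43.8 ± 13.9 RPKM (SD, n = 2) in proximal GWTM2 goblet cells, 160.4 ± 9.27 (n = 2) in proximal GWTT stromal cells and 40.7 ± 2.69 (n = 3) in control organoids at 12 h. Among the untreated groups with no deletion, the stromal cells thus held the highest level of this inhibitor. Nfkbiz was the lowest of the 10 in control organoids, at 5.52 ± 0.567 RPKM (n = 3) at 12 h, but it reached 47.7 RPKM in proximal GWTT cells. Tnfaip3 followed the same split, with 4.3 and 7.27 RPKM in proximal and distal goblet cells and 34.6 and 22.3 RPKM in proximal and distal stromal cells. Relb was the lowest of the 10 in GWTT cells of both segments, at 7.85 and 11.2 RPKM. These are levels on 1 scale, set across tables that were normalized separately, and were not tested.

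After 12 h of IL-1, the transcripts of the IκB genes Nfkbia and Nfkbiz rose 2.30-fold and 2.68-fold, and these were the members that passed the test in limma, 2 of 10, against 0.0542% of all 12913 genes tested. Values are normalized reads, each test used log2(value + 1), a call is a Benjamini-Hochberg adjusted p under 0.05 over all genes of the table, and errors of log2 fold changes are standard errors (SE).

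**Figure D1:**
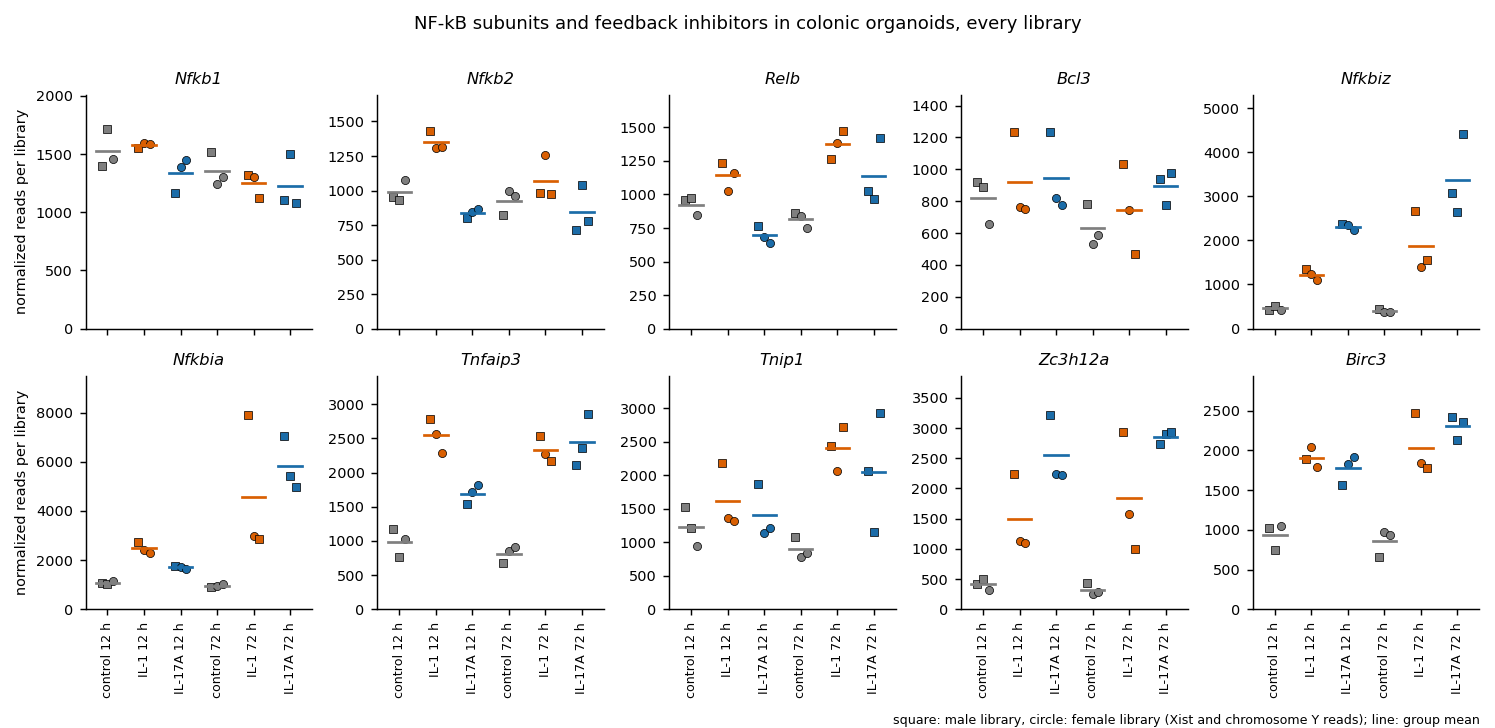
Normalized reads of the 10 members (vertical axes, linear from 0) in each organoid library, for control, IL-1 and IL-17A at 12 h and 72 h, with the 9 libraries of a time scaled together. Squares are male and circles female libraries, and lines are means of 3 libraries. Nfkbiz and Zc3h12a stand highest with IL-17A at both times, 1 IL-1 library at 72 h stands far above the other 2 for Nfkbia, and the groups of Nfkb1 overlap at 72 h.

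Nfkbia was at 1021, 1003 and 1091 reads in the 3 controls and at 2645, 2329 and 2203 with IL-1 (log2 fold change 1.20 ± 0.11 SE, adjusted p = 0.042). Every treated library was more than 2 times as high as any control. The nuclear IκB gene Nfkbiz went from 414, 493 and 411 to 1298, 1186 and 1048 reads (1.42 ± 0.13 SE, adjusted p = 0.042). Its groups did not overlap either, and the lowest treated library was 2.13 times the highest control. Bcl3, the other nuclear IκB gene, stood at 885, 854 and 631 against 1186, 737 and 724 reads, and its groups overlapped (0.14 ± 0.23 SE, adjusted p = 0.91).

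Among the genes acting on ubiquitin, Tnfaip3 was at 1135, 737 and 987 reads in controls and 2671, 2464 and 2192 with IL-1 (1.37 ± 0.18 SE, adjusted p = 0.11), and Birc3 at 977, 718 and 1006 and 1812, 1961 and 1726 (1.04 ± 0.15 SE, adjusted p = 0.16). Neither passed the test, although all treated libraries stood above all controls. Tnip1 overlapped, at 1470.4, 1172 and 907 against 2101, 1309 and 1262 reads (0.38 ± 0.25 SE, adjusted p = 0.89). Zc3h12a, the ribonuclease gene, had the largest difference of the 10, from 405, 477 and 313 to 2156, 1087 and 1062 reads (1.79 ± 0.30 SE, adjusted p = 0.26). Its replicate 1, a male library, was about 2 times as high as the 2 female ones, which are the near-identical pair, and the difference did not pass the test.

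Of the subunits, Nfkb2 was at 917, 898 and 1038 against 1377, 1256 and 1262 reads (0.45 ± 0.11 SE, adjusted p = 0.69) and Relb at 922, 935 and 812 against 1186, 987 and 1119 (0.30 ± 0.12 SE, adjusted p = 0.89). Both had all 3 treated libraries above the controls without passing the test. Nfkb1 overlapped, at a log2 fold change of 0.06. In all, 7 of the 10 members had every IL-1 library above every control, as did 5.30% of all genes, and the median log2 fold change was 0.74 over the members and 0.00 over all genes. The calls of Nfkbia and Nfkbiz were lost with the near-identical pair averaged (limma, adjusted p = 0.36 for both) and when any single library was left out. They were also lost in edgeR (adjusted p = 0.051 for both). Here and below, most lost calls are given without the share of all genes called in that refit. A lost call thus need not be particular to the members. With library sex as a block, 5 members were called higher, against 0.418% of all genes: Nfkbia at a log2 fold change of 1.22 (adjusted p = 0.0043), Nfkbiz at 1.48 (0.0036), Tnfaip3 at 1.39 (0.033), Zc3h12a at 2.03 (0.0033) and Birc3 at 0.99 (0.041). With the replicate number as a block, all members but Nfkb1 were called higher, 9 of 10 against 3.28% of all genes, but the controls and IL-1 libraries share only 2 numbers and this fit leaves 1 residual degree of freedom.

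After 12 h of IL-17A, the largest differences lay in Nfkbiz and Zc3h12a. They rose 5.06-fold and 6.17-fold and were the 2 of 10 members that passed the test in limma, against 0.0385% of all 12977 genes. Nfkbiz was at 435, 517 and 430.4 reads in controls and at 2386, 2363 and 2241 with IL-17A (2.34 ± 0.11 SE, adjusted p = 0.0013). The 3 treated libraries lay close together, and each was more than 4 times as high as any control. Zc3h12a went from 425, 500.0 and 328 to 3233, 2263 and 2236 reads (2.62 ± 0.21 SE, adjusted p = 0.026). Replicate 1 was again the highest of the treated libraries, and the lowest treated library was 4.47 times the highest control.

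The cytoplasmic inhibitor gene Nfkbia stood at 1071, 1051 and 1142 against 1771, 1729.7 and 1660.1 reads (0.66 ± 0.09 SE, adjusted p = 0.14). Tnfaip3 was at 1191, 773 and 1034 against 1549, 1737 and 1829 reads (0.79 ± 0.17 SE, adjusted p = 0.53), and Birc3 at 1026, 752 and 1053 against 1575, 1845 and 1931 (0.93 ± 0.16 SE, adjusted p = 0.26). These 3 genes had all treated libraries above all controls but did not pass the test. Tnip1 and Bcl3 overlapped, with log2 fold changes of 0.19 and 0.18. Relb and Nfkb2 stood below the controls in every library, Relb at 968, 979 and 851 against 773, 688 and 644 reads (-0.41 ± 0.12 SE, adjusted p = 0.79) and Nfkb2 at 962, 941 and 1087 against 805, 850.0 and 872 (-0.24 ± 0.11 SE, adjusted p = 0.93), and neither passed the test. Thus 5 members had every treated library above every control, as did 5.91% of all genes, and 2 had every treated library below, as did 5.01%. The median log2 fold change was 0.42 over the members and -0.00 over all genes. The call of Nfkbiz held with the pair of near-identical IL-17A libraries averaged (adjusted p = 0.028, with 0.0154% of all genes called), while that of Zc3h12a did not (adjusted p = 0.18). Zc3h12a also lost its call without control replicate 1 or 2 or without IL-17A replicate 3 or 4 (adjusted p of 0.074 to 0.16), and neither gene was called without the 2 controls that recur at 72 h (adjusted p = 0.081 and 0.29), which leaves 1 control. With library sex as a block, 4 members were called higher, against 0.609% of all genes: Nfkbia at 0.65 (adjusted p = 0.011), Nfkbiz at 2.37 (0.00014), Zc3h12a at 2.79 (4.6e-05) and Birc3 at 0.84 (0.043). With the replicate number as a block, again over 2 shared numbers and with 1 residual degree of freedom, 7 members were called higher (4.99% of all genes), and Relb (-0.36, adjusted p = 0.0022) and Nfkb2 (-0.29, 0.02) were called lower (2.74%).

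By 72 h of IL-1, 7 of the 10 members were called higher in limma, where 19.6% of all 13023 genes were called higher and 38.4% in either direction. Relb, Nfkbia, Nfkbiz, Tnfaip3, Tnip1, Zc3h12a and Birc3 rose, and Nfkb1, Nfkb2 and Bcl3 did not pass. Nfkbia was at 951, 997 and 1046 reads in controls and at 8226, 3109 and 2953 with IL-1 (2.08 ± 0.36 SE, adjusted p = 0.0055). Replicate 1 stood far above the other treated libraries, and the lowest treated library was 2.82 times the highest control. Nfkbiz went from 467, 387 and 394 to 2781, 1436 and 1610.3 reads (2.16 ± 0.25 SE, adjusted p = 0.0028), and Zc3h12a from 452, 260.1 and 300.2 to 3055, 1642 and 1037 (2.40 ± 0.39 SE, adjusted p = 0.0045). In both genes replicate 1 was again the highest and all treated libraries stood above the controls.

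The ubiquitin-editing pair rose together in the 3 libraries with less spread. Tnfaip3 was at 699, 874 and 947 against 2634, 2354 and 2243 reads (1.53 ± 0.16 SE, adjusted p = 0.0025), and its partner Tnip1 at 1111, 811 and 870.0 against 2532, 2143 and 2806 (1.43 ± 0.17 SE, adjusted p = 0.0029). Birc3 was at 680.3, 999 and 965 against 2562, 1910.2 and 1842 reads (1.26 ± 0.20 SE, adjusted p = 0.0046). No treated library of these 3 genes reached down to a control. Relb, the only subunit gene called with IL-1 in limma at 72 h, was at 886, 871 and 779 against 1317, 1433 and 1524 reads (0.75 ± 0.14 SE, adjusted p = 0.0062). Its partner Nfkb2 overlapped, at 852, 1029 and 996 against 1023, 1300.4 and 1008 reads (0.21 ± 0.16 SE, adjusted p = 0.34). Nfkb1 and Bcl3 overlapped as well, with log2 fold changes of -0.11 (adjusted p = 0.58) and 0.19 (0.64). Among markers of other cells, Ly6g, the only 1 of 8 neutrophil markers with reads at 72 h, rose to 485.5 to 701.3 CPM with IL-1 and 254.7 to 773.6 with IL-17A against 133.2 to 152.3 in controls. Cd14, 1 of 3 macrophage markers tested, rose with IL-1 (log2 fold change 1.42, adjusted p = 0.029) and IL-17A (1.58, 0.049), and Pdgfrb, 1 of 2 fibroblast markers tested, with IL-1 (1.77, 0.047), and the part of these in the members' values was not tested. The median log2 fold change was 1.34 over the members and -0.00 over all genes, and 27.0% of all genes had every IL-1 library above every control, as had 7 members. All 7 calls held with the near-identical controls averaged, at adjusted p of 0.015 to 0.033 beside 11.4% of all genes called higher, and none held without the 2 controls that recur at 12 h (0.062 to 0.14), which leaves 1 control.

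At 72 h of IL-17A, 5 members were called higher in limma, against 6.59% of all 13073 genes. The IκB genes Nfkbia and Nfkbiz, the ribonuclease gene Zc3h12a, Tnfaip3 and Birc3 rose. Nfkbia was at 949, 992 and 1044 reads in controls and at 7353, 5632 and 5138 with IL-17A (2.58 ± 0.17 SE, adjusted p = 0.0039), 6.07-fold by the means. Nfkbiz went from 466, 385 and 394 to 3191, 2759.7 and 4563 reads (3.05 ± 0.22 SE, adjusted p = 0.0039), and Zc3h12a from 451, 259 and 299.6 to 2839, 3026 and 3050.0 (3.18 ± 0.22 SE, adjusted p = 0.0039). Zc3h12a had the largest fold of the 10, 8.83 by the means, and its 3 treated libraries differed little from each other.

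Tnfaip3 was at 698, 869 and 945 against 2198, 2459 and 2964 reads (1.60 ± 0.19 SE, adjusted p = 0.022), and Birc3 at 679, 994 and 963 against 2512, 2222 and 2440.3 (1.46 ± 0.19 SE, adjusted p = 0.023). Both groups of treated libraries lay wholly above the controls. Tnip1 spread widely, at 1109, 806 and 868 against 2154, 1195 and 3029 reads, all above the controls, and did not pass (1.11 ± 0.34 SE, adjusted p = 0.068). Relb was at 884, 866 and 778 against 1066, 1005 and 1476 reads (0.47 ± 0.19 SE, adjusted p = 0.12), also above the controls in each library without passing. Bcl3, Nfkb1 and Nfkb2 overlapped, with log2 fold changes of 0.53, -0.14 and -0.13. The median log2 fold change was 1.29 over the members and -0.01 over all genes, and 7 members had every treated library above every control, as did 21.7% of all genes.

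The IL-17A calls at 72 h rested on how the controls were treated. With the near-identical controls averaged none of the 5 was called, at adjusted p of 0.051 for Nfkbia and Zc3h12a, 0.054 for Nfkbiz, 0.12 for Tnfaip3 and 0.13 for Birc3. Without control replicate 4 none was called, and without control replicate 2 or IL-17A replicate 1 only 1 was (Zc3h12a and Nfkbia, respectively). Every fold change kept its sign. The share of all genes called in these refits is not given, so whether the losses are particular to the members cannot be told. The 3 treated libraries were all male and 2 of the 3 controls were female, so library sex and treatment are in part confounded, and with sex as a block, which leaves 1 male control to compare with, only Zc3h12a was called (log2 fold change 2.72, adjusted p = 0.04, against 0.0382% of all genes).

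**Figure D2:**
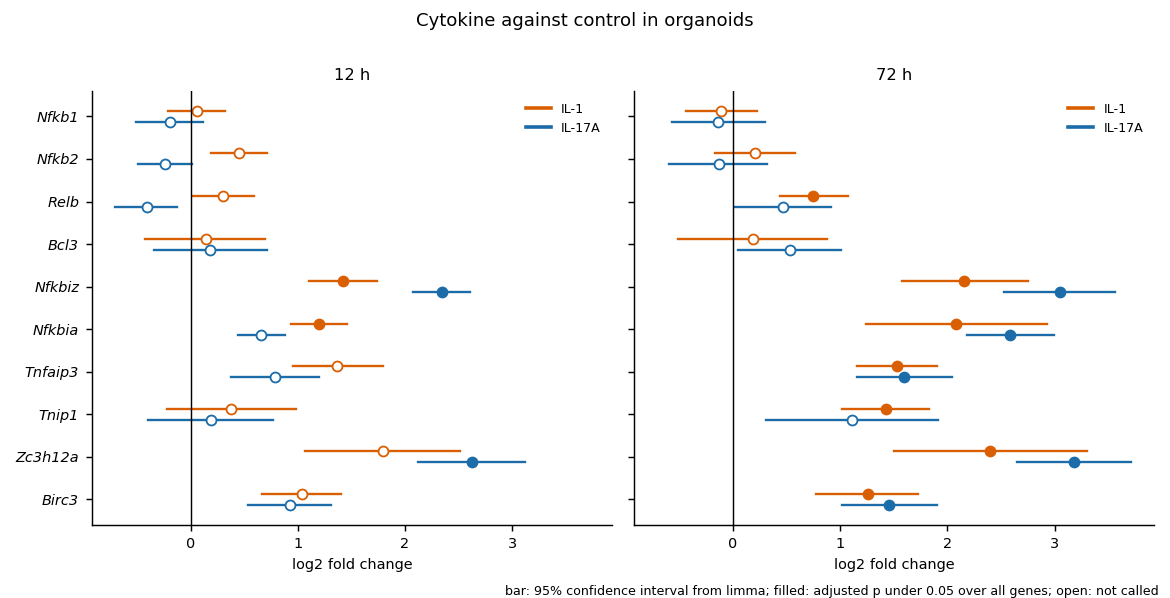
Log2 fold change against control of each member, with 95% confidence intervals from limma (horizontal axis, log2 scale), for IL-1 (orange) and IL-17A (blue) after 12 h and 72 h, with 3 libraries per group. Filled points were called at an adjusted p under 0.05: 2 members for each cytokine at 12 h, 7 for IL-1 and 5 for IL-17A at 72 h.

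To set the cytokines against each other, the 9 libraries of a time were scaled together and IL-1 was tested against IL-17A directly. At 12 h Nfkb1, Nfkb2, Relb, Nfkbia and Tnfaip3 stood higher with IL-1 and Nfkbiz higher with IL-17A, with no overlap between the groups, while the other 4 members overlapped. Across 9 libraries and 12949 genes limma called no gene (0%), although 6 members and 139 genes had an unadjusted p under 0.05, DESeq2 called 4 members (0.139% of all genes) and edgeR called 0.

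Nfkb2 stood at 1351.1 ± 72.5 jointly scaled reads (SD, n = 3) with IL-1 and 836.3 ± 34.0 with IL-17A, a log2 ratio of 0.69 (95% interval 0.48 to 0.90, adjusted p = 0.34). Relb was at 1142.2 ± 106.6 and 697.0 ± 65.4, a log2 ratio of 0.71 (0.45 to 0.97, adjusted p = 0.52). The p100 and RelB genes thus had near-equal ratios between the cytokines. Nfkbia was at 2489.6 ± 239.7 with IL-1 and 1708.0 ± 55.5 with IL-17A, a log2 ratio of 0.54 (0.33 to 0.75, adjusted p = 0.52), and Tnfaip3 at 2541.9 ± 252.9 and 1692.7 ± 141.2, a log2 ratio of 0.58 (adjusted p = 1.0). The opposite order held for Nfkbiz, with 1225.4 ± 131.3 and 2313.4 ± 77.1 reads and a log2 ratio of -0.92 (-1.18 to -0.66, adjusted p = 0.31). Zc3h12a was at 1494.0 ± 651.9 and 2559.4 ± 565.5 reads, a log2 ratio of -0.84 (-1.50 to -0.17, adjusted p = 1.0), but its groups overlapped. Birc3, Tnip1 and Bcl3 had log2 ratios of 0.11, 0.20 and -0.05 and overlapped. In all, 5 members stood higher with IL-1 in every library, Nfkb1 with a log2 ratio of 0.25 among them, as did 2.44% of all genes, and 1 lower, as did 2.45%.

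Libraries of the same replicate number deviated together at 12 h, and in the fit with the replicate number as a block 7 members were called, against 2.09% of all genes. Nfkb1, Nfkb2, Relb, Nfkbia and Tnfaip3 were called higher with IL-1 (limma, adjusted p = 0.018, 3e-07, 2.2e-07, 3.3e-06 and 1.2e-05), and Nfkbiz and Zc3h12a lower (1.4e-09 and 8e-07). This fit counts the near-identical libraries as separate and leaves few residual degrees of freedom, so these p-values may be too small. With the near-identical libraries also averaged, 6 of these 7 were called, all but Nfkb1, against 0.749% of all genes. With library sex as the block in place of the number, 5 were called, against 0.147%: Nfkb2 (adjusted p = 0.0071), Relb (0.005) and Nfkbia (0.024) higher, and Nfkbiz (0.005) and Zc3h12a (0.024) lower.

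**Figure D3:**
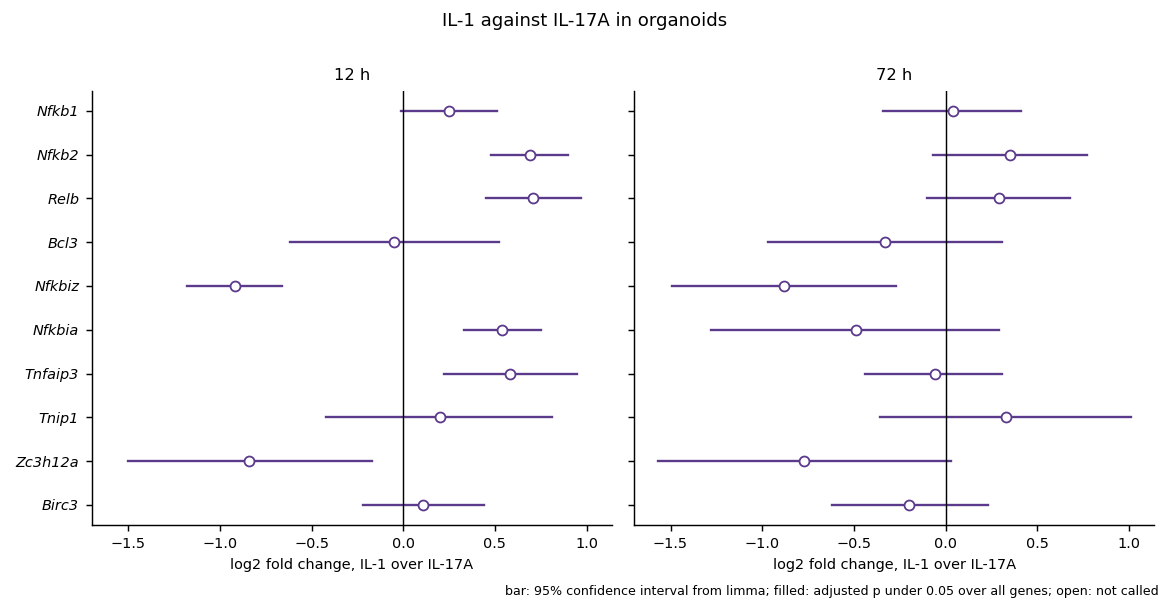
Log2 ratio of IL-1 over IL-17A for each member at 12 h and 72 h (horizontal axis, log2 scale) with 95% confidence intervals from limma, 3 libraries per group; values right of 0 are higher with IL-1. At 12 h the intervals of Nfkb2, Relb, Nfkbia and Tnfaip3 lie right of 0 and those of Nfkbiz and Zc3h12a left of it, and at 72 h only that of Nfkbiz leaves out 0.

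At 72 h the groups of all 10 members overlapped between the cytokines and no member was called, nor any other of 12995 genes in limma (0%), with 1 member and 72 genes at an unadjusted p under 0.05 and 0 members called by edgeR or DESeq2. Nfkbiz kept its order, at 1872.2 ± 699.5 jointly scaled reads with IL-1 and 3373.4 ± 914.6 with IL-17A, a log2 ratio of -0.88 (-1.49 to -0.27, adjusted p = 1.0). Zc3h12a had a log2 ratio of -0.77 (-1.57 to 0.03) and Nfkbia, which had been higher with IL-1 at 12 h, one of -0.49 (-1.28 to 0.29). The ratios of Nfkb2 and Relb were 0.35 and 0.29. The intervals at 72 h were wide enough to hold the 12 h ratios of Nfkbiz and Zc3h12a, so a lasting difference of that size was neither shown nor left out at this number of libraries.

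The difference between 12 h and 72 h was tested as an interaction of cytokine and time over the control and treated libraries of both tables. The control libraries that recur were entered at both times, so these p-values count the same reads as separate libraries. For IL-1, Tnip1 was the only member whose response was called larger at 72 h (log2 difference 1.04 ± 0.32 SE, adjusted p = 0.037), in a comparison that called 11.7% of all genes larger. Its log2 fold changes were 0.38 at 12 h and 1.43 at 72 h. Relb (difference 0.45, adjusted p = 0.067), Nfkbiz (0.74, 0.095) and Nfkbia (0.88, 0.15) did not pass, and Tnfaip3 and Birc3 differed by 0.15 and 0.22. The call of Tnip1 was lost without control replicate 1 or 2 or IL-1 replicate 3 or 4 at 12 h and without control replicate 2 or 4 or IL-1 replicate 1 or 3 at 72 h (adjusted p of 0.059 to 0.095), and with the near-identical pairs averaged.

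For IL-17A, the response of Nfkbia was called larger at 72 h (log2 difference 1.92 ± 0.19 SE, adjusted p = 0.0071), in a comparison that called 0.0307% of all genes larger. Its log2 fold change was 0.66 at 12 h and 2.58 at 72 h, and the treated libraries lay at 1771, 1729.7 and 1660.1 reads at 12 h and 7353, 5632 and 5138 at 72 h, each within its own table. Relb changed sides, from -0.41 at 12 h to 0.47 at 72 h, a difference of 0.88 that did not pass (adjusted p = 0.074). Tnfaip3 (0.81, adjusted p = 0.1, limma), Nfkbiz (0.71, 0.11) and Zc3h12a (0.56, 0.27) did not pass. The fitted difference was above 0 for all 10 members, as it was for 6352 of all 13020 genes. A difference above 0 is not always a larger response, since the log2 fold change of Nfkb2 was below 0 at both times. The call of Nfkbia was lost without IL-17A replicate 4 at 12 h (adjusted p = 0.052), without control replicate 2 at 72 h (0.05) and with the near-identical pairs averaged. Since 2 control libraries serve at both times, the controls were also pooled into 1 untreated group of 4 distinct libraries. The pooled controls then enter only the estimate of the spread, and the 72 h cytokine libraries are set directly against those of 12 h. This does not correct for time in culture. In it 4 members were called higher at 72 h with IL-1 (Relb, Nfkbia, Nfkbiz and Tnip1, against 20.1% of all genes) and 5 with IL-17A (Relb, Nfkbia, Nfkbiz, Tnfaip3 and Birc3, against 12.1%).

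Over the 18 organoid libraries, 16 of them distinct, the genes whose pattern was most like that of Nfkbia among 12957 were Tnf (Pearson correlation 0.961), Myo1c (0.959), Pvr (0.955), F3 (0.955) and Bach1 (0.954), after centring within each time. Of the members Birc3 (0.919) and Tnfaip3 (0.897) came closest, then Zc3h12a (0.863) and Nfkbiz (0.859), with Tnip1 (0.700), Bcl3 (0.539) and Relb (0.521) further off and Nfkb2 (0.103) and Nfkb1 (-0.194) apart. These correlations describe libraries that share treatments and cultures and carry no test.

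Other genes of the pathway were counted in 6 lists by function. At 12 h no list but the NF-κB output genes held a call: with IL-1, 3 of 11 output genes rose, namely the chemokine genes Ccl20 (log2 fold change 4.95, adjusted p = 0.021) and Cxcl2 (4.69, 0.042) and the complement gene C3 (3.80, 0.042), and with IL-17A none of 10 did, at a list median of 2.30. At 72 h of IL-1, 0 of 5 other NF-κB and IκB genes, 5 of 12 genes of the IκB kinases and their regulators, 2 of 13 receptor and adaptor genes, 2 of 16 ubiquitin genes, 3 of 8 RNA decay genes and 7 of 11 output genes rose, beside the 19.6% of all genes called higher. Among them were the kinase genes Map3k8 (1.38, adjusted p = 0.036) and Ikbke (0.93, 0.0047), the adaptor kinase gene Irak2 (1.89, 0.0025) and the RNA decay gene Zfp36 (1.60, 0.0049). In the same comparison 5 of the 13 receptor and adaptor genes fell, beside 18.9% of all genes, with Irak3, an inhibitory member of that family, at -1.68 (adjusted p = 0.0081). At 72 h of IL-17A the calls were fewer, with 1 of 12, 1 of 13, 1 of 16, 2 of 8 and 6 of 11 genes higher in the same lists after 0 of 5, beside 6.59% of all genes. Of the 13 receptor and adaptor genes 1 also fell with IL-17A, Myd88 (-0.75, adjusted p = 0.047, limma), beside 547 of all 13073 genes. Irak2 (1.71, adjusted p = 0.044), Ikbke (0.97, 0.036) and Zfp36 (1.60, 0.037) were again among those that rose, in comparisons that share the control libraries with IL-1.

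In Gli1+ stromal cells, deletion of Smad4 went with higher transcripts of several feedback genes. In the distal colon 7 of the 10 members were called higher in limma, against 12.1% of all 15262 genes called higher and 23.2% in either direction, and in the proximal colon 3 of 10, against 8.32% of 15319 genes called higher. Bcl3, Relb and Zc3h12a were called in both segments.

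**Figure D4:**
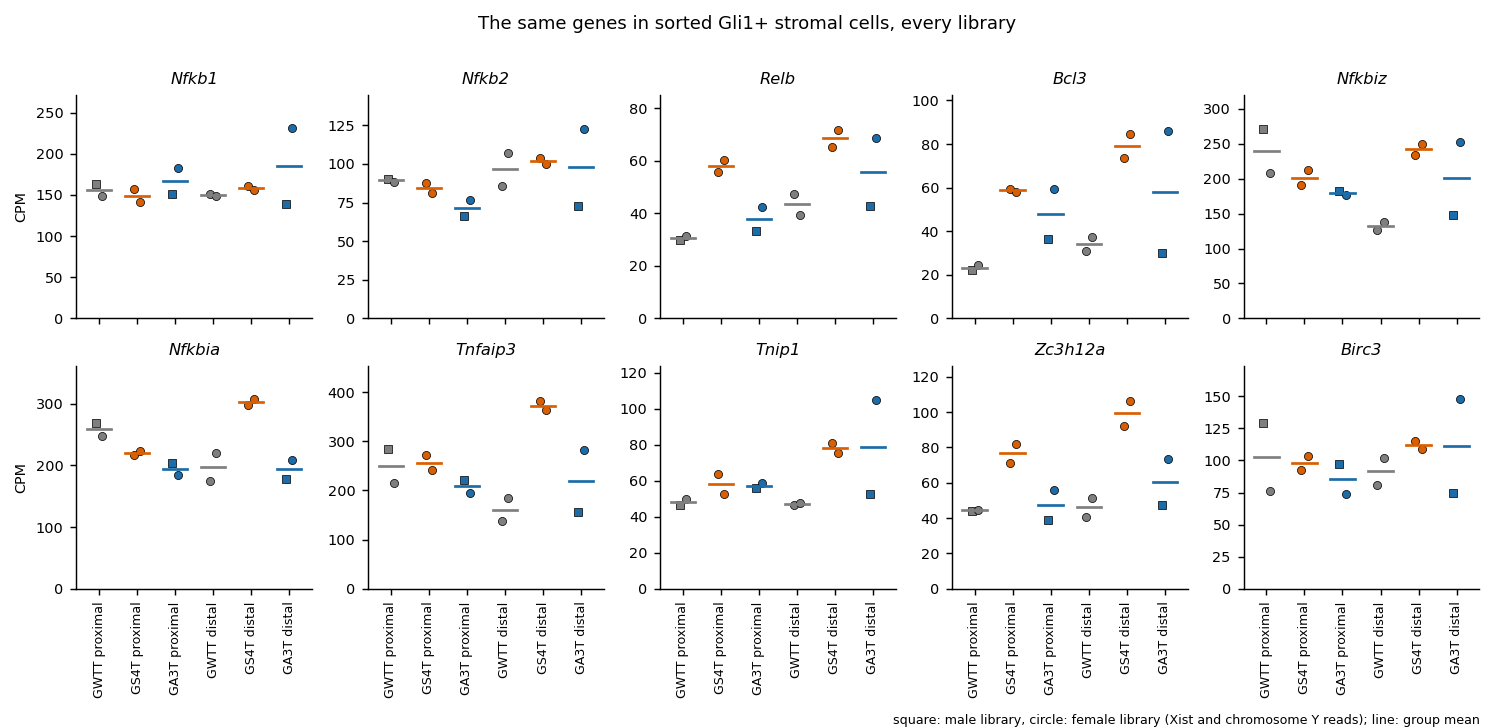
CPM of the 10 members (vertical axes, linear from 0) in each sorted stromal library of GWTT, GS4T and GA3T mice, proximal and distal colon, 2 libraries per group. Squares are male and circles female libraries, and lines are means. In the distal colon the GS4T libraries stand above GWTT for Bcl3, Zc3h12a, Tnfaip3 and Nfkbiz, and 1 GA3T library, replicate 2, stands above the other for every member.

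Bcl3, a nuclear IκB gene that passed the test with neither cytokine in the organoids, had the largest response in proximal GS4T cells, from 375 and 405 reads in GWTT to 966 and 993 in GS4T (1.33 ± 0.12 SE, adjusted p = 0.0066). In distal cells it went from 509 and 603 to 1204 and 1414 (1.23 ± 0.15 SE, adjusted p = 0.0048). The lowest GS4T library was 2.39 times the highest control in proximal and 2 times in distal cells. Relb was at 504 and 517 against 907 and 1031 reads in proximal cells (0.92 ± 0.12 SE, adjusted p = 0.014) and at 776 and 639 against 1072 and 1199 in distal cells (0.69 ± 0.14 SE, adjusted p = 0.024). Zc3h12a was at 742 and 742 against 1163 and 1403 reads in proximal cells (0.78 ± 0.13 SE, adjusted p = 0.022) and at 667 and 835 against 1507 and 1777 in distal cells (1.13 ± 0.16 SE, adjusted p = 0.0072). The groups of both genes stood apart in both segments.

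The remaining calls were in the distal colon. Tnfaip3 went from 2246 and 3005 to 6267 and 6062 reads (1.25 ± 0.16 SE, adjusted p = 0.0056). Nfkbiz was at 2079 and 2230.4 against 3838 and 4184 (0.90 ± 0.11 SE, adjusted p = 0.0049), Nfkbia at 2851 and 3558 against 4892 and 5137 (0.65 ± 0.14 SE, adjusted p = 0.024) and Tnip1 at 765 and 775 against 1325 and 1261 (0.75 ± 0.11 SE, adjusted p = 0.0081). No GS4T library of these 4 genes was as low as a control. In proximal cells none of these 4 passed. Tnfaip3 was at 4814 and 3574 in GWTT and 4428 and 4127 in GS4T (0.04 ± 0.17 SE, adjusted p = 0.88), and Nfkbiz at 4580.4 and 3444 and 3104 and 3642 (-0.24 ± 0.17 SE, adjusted p = 0.38). Both overlapped. Nfkbia was lower in both GS4T libraries of the proximal colon, at 4543 and 4107 against 3539 and 3809 reads (-0.23 ± 0.11 SE, adjusted p = 0.2), and Tnip1 was higher in both, at 784 and 832 against 1038 and 904 (0.26 ± 0.12 SE, adjusted p = 0.19). Birc3, Nfkb1 and Nfkb2 were called in neither segment.

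In the distal colon 9 members had both GS4T libraries above both controls, as did 34.4% of all genes, and in the proximal colon 4 had, as did 34.0%, with 2 below (31.4%). The median log2 fold change over the members was 0.72 in distal cells and 0.01 in proximal cells, beside 0.00 and 0.02 over all genes. Tested as an interaction of genotype and segment, no member differed in limma (0.189% of all genes did), with 4 members at an unadjusted p under 0.05 and edgeR calling 0. The largest differences were those of Tnfaip3 (1.20, adjusted p = 0.13), Nfkbiz (1.14, 0.11) and Nfkbia (0.89, 0.12), and DESeq2 called these 3, beside 1.10% of all genes. All 3 proximal calls were lost when either proximal GS4T library was left out, at adjusted p of 0.056 to 0.11. Relb and Nfkbia lost their distal call when any 1 of the 4 libraries was left out (0.051 to 0.16), and Tnip1 when either GWTT library was (0.065 and 0.07), whereas Nfkbiz, Tnfaip3, Zc3h12a and Bcl3 stayed called.

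The sorted GS4T cells also held more transcripts of other cell types. In the distal colon 8 of 8 neutrophil markers were called higher, with a summed level of 192.4 to 252.8 CPM in GS4T and 3.64 to 6.62 in GWTT, and in the proximal colon 5 of 6 tested, at 76.8 to 88.5 and 2.39 to 6.49, with Camp and Ly6g without reads in proximal GWTT. Of 10 macrophage markers 5 rose in distal cells (summed level 1264.0 to 2271.0 in GS4T and 665.5 to 769.7 in GWTT) and 7 in proximal cells (980.2 to 1736.1 and 199.0 to 320.0). Of the lymphocyte and plasma cell markers 3 of 7 tested fell in distal cells (111.7 to 450.3 and 3490.1 to 4822.3) and 2 of 6 in proximal cells (430.6 to 832.8 and 1575.7 to 2794.0). Of 13 epithelial markers 7 rose and 1 fell in distal cells (744.8 to 1750.4 and 179.5 to 409.9), and 1 rose in proximal cells (1303.6 to 2056.6 and 15.2 to 759.7). The part of these transcripts of other cell types in the higher Bcl3, Relb, Zc3h12a, Tnfaip3, Nfkbiz, Nfkbia and Tnip1 was not tested. All GS4T libraries and both distal GWTT libraries were female, so library sex did not differ between the distal groups, and 1 proximal GWTT library was male. Along with the members, the receptor gene Il1r1 rose in both segments (1.58, adjusted p = 0.0063 in proximal and 1.66, 0.0013 in distal cells, limma). The ubiquitin-binding A20 partner gene Tnip3 (3.85 and 3.05) and the IκB gene Nfkbie (0.63 and 0.80) rose in both as well. Of the 17 ubiquitin genes, 1 rose and 2 fell in proximal cells, and 1 rose and 1 fell in distal cells. Tnip2 of that list fell in both segments (-0.59 and -0.71), and the kinase gene Map3k8 fell in proximal cells (-1.02). Of 11 NF-κB output genes 6 rose and 1 fell in proximal and 7 rose and 1 fell in distal GS4T cells, led by Lcn2, the siderophore-binding protein of the innate defence (5.88 and 7.27). Of 9 RNA decay genes 3 fell in each segment, beside 7.24% of all genes in proximal and 11.1% in distal cells, Zfp36 among them (-1.31 and -0.63).

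Deletion of Alk3 in stromal cells gave no call among the members in either segment. In proximal GA3T cells (0.358% of all 15346 genes called in limma, 3 members at an unadjusted p under 0.05, edgeR 0 members) the largest difference was that of Bcl3, at 395 and 426 reads in GWTT against 654 and 1039.8 in GA3T (1.01 ± 0.25 SE, adjusted p = 0.13), which DESeq2 called, beside 6.71% of all genes called higher. Both GA3T libraries stood above both controls, as they did for Relb at 529.8 and 544 against 597 and 742 (0.31 ± 0.16 SE, adjusted p = 0.32) and Tnip1 (0.26 ± 0.11 SE, adjusted p = 0.26). Nfkbia was lower in both, at 4780.0 and 4318 against 3636 and 3239 reads (-0.40 ± 0.12 SE, adjusted p = 0.17), as were Nfkbiz and Nfkb2. The 3 members above stand beside 28.8% of all genes and the 3 below beside 27.5%.

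In distal GA3T cells no gene of 15414 was called (0%), with 2885 genes but no member at an unadjusted p under 0.05 and no member called by edgeR or DESeq2. The 2 libraries stood far apart, the female replicate 2 above the male replicate 1 for all 10 members. Bcl3 was at 581 and 686 reads in GWTT and 536 and 1656 in GA3T (0.58 ± 0.52 SE, adjusted p = 0.58), Tnip1 at 872 and 882 and 941 and 2025 (0.65 ± 0.36 SE, adjusted p = 0.38), and Nfkbiz at 2372 and 2538 and 2642 and 4882 (0.55 ± 0.29 SE, adjusted p = 0.38). In these 3 genes replicate 1 lay near the controls and replicate 2 well above them, and 2 members, Tnip1 and Nfkbiz, had both libraries above both controls, as did 27.5% of all genes. With library sex as a block, in which the male replicate 1 has no male control beside it, 4 members were called higher, against 2.58% of all genes: Nfkb1 at 0.68 (adjusted p = 0.043), Nfkbiz at 0.99 (0.029), Tnip1 at 1.21 (0.023) and Bcl3 at 1.39 (0.033). Replicate 1 is the only male library in this comparison, so this block is in effect the fit without it and rests on GA3T replicate 2 alone. Neutrophil markers summed to 21.9 to 23.3 CPM in these libraries, between GWTT and GS4T. The interaction of genotype and segment called no member and no gene of 15301 in limma (0%), with 1 member and 1047 genes at an unadjusted p under 0.05, and edgeR and DESeq2 called 0 members.

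In Muc2+ goblet cells no member was called in limma for GS4M2 or GA3M2 in either segment, where 0.325% and 0.0899% of all genes were called in the proximal and 0% in both distal comparisons. At an unadjusted p under 0.05 there were 1 member in each proximal comparison (2208 and 2039 genes), and 0 in each distal one (1389 and 1537 genes), and edgeR and DESeq2 called 0 members in all 4. Bcl3 had the highest log2 fold change of the 10 in the proximal comparisons. It was at 669.5 and 450.1 reads in GWTM2 against 872 and 942 in GS4M2 (0.72 ± 0.20 SE, adjusted p = 0.17) and, in the table with GA3M2, at 713 and 476 against 1553 and 929 (1.04 ± 0.32 SE, adjusted p = 0.25). The groups of Bcl3 did not overlap in the proximal colon, where 2 members had both GS4M2 libraries above both controls (25.0% of all genes) and 3 had both GA3M2 libraries above (26.0%). In the distal colon they did, at 1088 and 584 against 1060.4 and 1379.8 (0.60 ± 0.32 SE, adjusted p = 0.55) and 1041 and 564 against 1864 and 776 (0.65 ± 0.48 SE, adjusted p = 0.64).

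**Figure D5:**
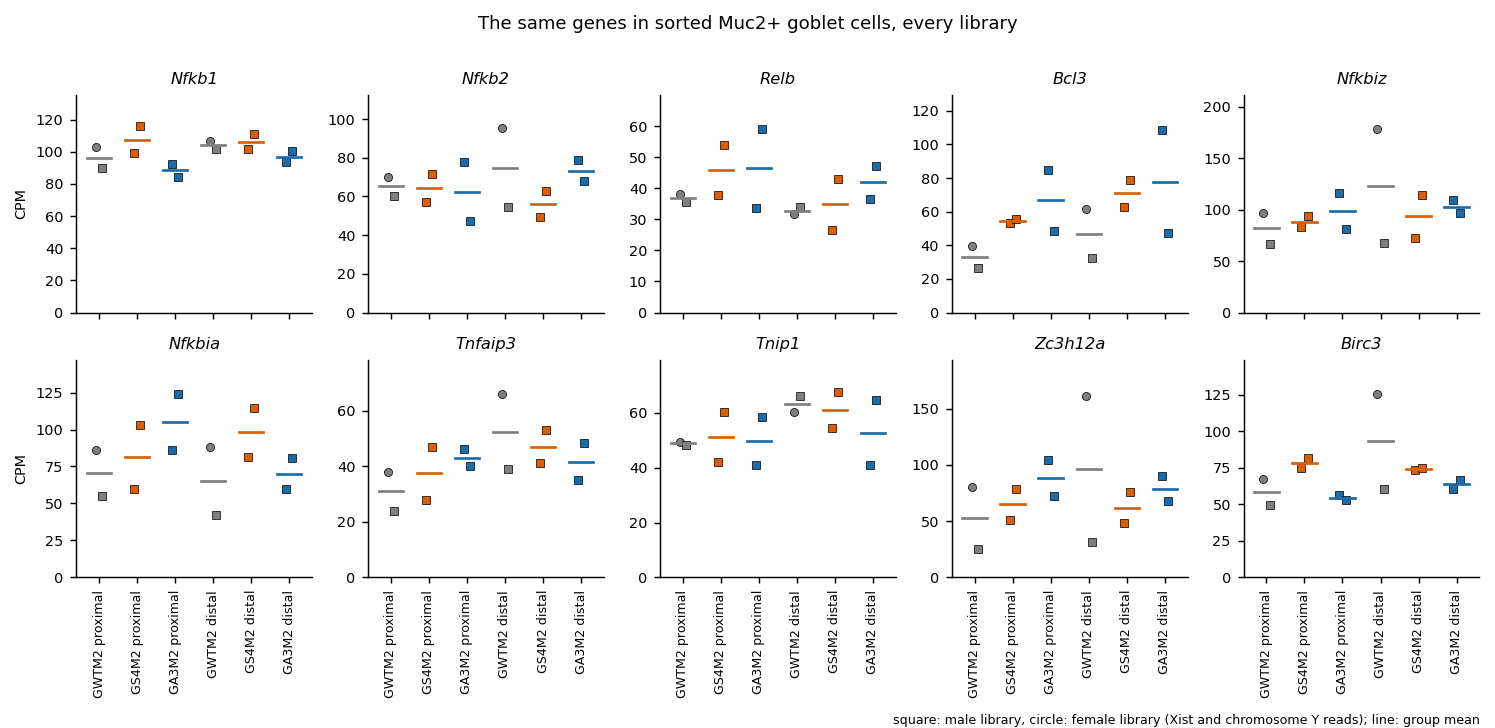
CPM of the 10 members (vertical axes, linear from 0) in each sorted goblet cell library of GWTM2, GS4M2 and GA3M2 mice, proximal and distal colon, 2 libraries per group. Squares are male and circles female libraries, and lines are means. The 2 distal GWTM2 libraries stand far apart for Zc3h12a, Nfkbiz and Birc3, with the female library higher.

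Zc3h12a showed how far apart 2 control libraries could be. Its distal GWTM2 libraries were at 2859 and 574 reads, the female one first, and the GS4M2 libraries at 818 and 1315 (-0.30 ± 0.76 SE, adjusted p = 0.9). In proximal cells the controls were at 1373 and 437, the female one again first, and GS4M2 at 842 and 1325 (0.45 ± 0.52 SE, adjusted p = 0.7). In GA3M2 it was at 1904 and 1384 in proximal (0.98 ± 0.52 SE, adjusted p = 0.4) and 1541 and 1113 in distal cells (0.09 ± 0.72 SE, adjusted p = 0.97). The knockout libraries thus lay between the control libraries in 3 of these 4 comparisons, or partly above them in proximal GA3M2. Nfkbiz (3156 and 1219 reads) and Birc3 (2228 and 1092) were split the same way in distal GWTM2. With library sex as a block, which leaves the female GWTM2 library with no female knockout library beside it, Bcl3 was called higher in distal GS4M2 (1.05, adjusted p = 0.044, against 1.66% of all genes) and Zc3h12a in distal GA3M2 (1.24, 0.0022, against 3.60%). Neutrophil markers summed to 73 to 125.3 CPM in distal GA3M2, 15.3 to 33.5 in distal GS4M2 and 7.94 to 9.01 in distal GWTM2, with 5 of the 8 without reads in GA3M2 and GWTM2. In proximal cells they summed to 19.8 to 82.1 CPM in GA3M2, 5.94 to 13.4 in GS4M2 and 0.378 to 1.06 in GWTM2, and the macrophage marker Lyz2, without reads in proximal GWTM2, was called higher in GA3M2 (limma, adjusted p = 0.018), 1 of 6 macrophage markers tested. In proximal GS4M2 and GWTM2, 7 of the 8 neutrophil markers had no reads or no row, so these sums are of Ly6g alone. The same held for 6 of them in distal GS4M2 and 5 in proximal GA3M2. Ly6g was also the only one with reads in control organoids at 12 h, at 133.2 to 168.6 CPM. The part of these transcripts in the values of Bcl3, Zc3h12a and the other members was not tested. Over the members the log2 fold changes ran from -0.06 to 0.72 (median 0.19) in proximal GS4M2, -0.08 to 1.04 (0.32) in proximal GA3M2, -0.43 to 0.60 (-0.15) in distal GS4M2 and -0.49 to 0.65 (-0.07) in distal GA3M2, where the median of all genes was between -0.00 and 0.00.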

How the data were processed

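RNA was sequenced from 24 libraries of sorted mouse colon cells and 18 of colonic organoids, prepared with a SMARTer kit. The authors checked read quality, kept reads mapped uniquely to mm10 by STAR 2.5.3, and deposited gene counts normalized with DESeq2 1.28.1, a signal per gene scaled within each of 12 tables. The counting program, its annotation and its use of strand are not given in the sources used here, so reads from antisense transcripts cannot be told apart from a gene's own. Every deposited value was a whole multiple of 1 read, worth 0.75 to 1.26, within a tolerance of 0.1, so whole reads were recovered for depth, edgeR 4.0.16 and DESeq2 1.42.0. Entries without a gene name held up to 28.2% of reads in the GS4M2 tables and were left out.

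Each table was tested alone with limma 3.58.1 in R 4.3.3 (moderated two-sided test with a trend) on log2(value + 1) for genes with a mean of at least 10, with Benjamini-Hochberg adjustment over all genes tested. IL-1 against IL-17A used the recovered reads of the 9 libraries of a time, scaled by the median of ratios, with the controls counted once. Differences between times and segments were interactions over 2 tables. The methods of the study count genes with DESeq2, which was run here as an alternative because the deposited values are already scaled. Marker sums and levels per length are from recovered reads and GENCODE M21 exon lengths. The analysis was run with Python 3.11.15, pandas 2.3.3 and matplotlib 3.10.9, and the fits were tested on simulated data.

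Members and gene lists were chosen with earlier results of these data known. All members were named, and of each other list at most the 3 called genes with the largest change. The alternatives were a pseudocount of 0.1 or 10, no filter, a mean of at least 50, upper-quartile scaling, a fold of at least 2, edgeR, DESeq2, near-identical libraries averaged, the replicate number as a block and each library left out. Sex of the library as a block, shared controls left out or used once, the block with averaging and all alternatives of the segment differences were added after seeing the data. In the joint fits, libraries of 1 replicate number deviated together (correlations of 0.86, 0.59 and 0.62 at 12 h and 0.57, 0.44 and 0.73 at 72 h), although the labels do not say what a number marks.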

Additional observations from a re-analysis of the deposited data

Results flagged for a closer look

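Tnip1 and Nfkbia were each called as responding differently to 1 cytokine at the 2 times. Both calls were lost with the near-identical libraries averaged and with the replicate number as a block. The IL-1 response of Tnip1 was larger at 72 h than at 12 h by 1.04 on the log2 scale (limma, adjusted p = 0.037), and the IL-17A response of Nfkbia was larger at 72 h by 1.92 (adjusted p = 0.0071), each with 3 libraries per group of which 2 controls are shared between the times.

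Other members had every treated or knockout library on one side of the controls in one setting and on the other side in the second. In GS4T stromal cells the log2 fold change of Nfkbia was -0.23 in proximal and 0.65 in distal cells, and the difference of 0.89 did not pass (adjusted p = 0.12). In GA3T stromal cells that of Nfkbiz was -0.39 in proximal and 0.55 in distal cells, a difference of 0.94 (adjusted p = 0.72). With IL-17A that of Relb was -0.41 at 12 h and 0.47 at 72 h, a difference of 0.88 (adjusted p = 0.074).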

How the results depend on the processing

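Over 3140 results of a member under another setting, 3003 kept the sign, and 370 of 475 for the 28 called results were still called. The setting with a fold of at least 2 reuses the main fit, so its signs were fixed in advance. Some fits with sex as a block are in effect fits with 1 library left out. The kept signs are thus not all separate checks. The log2 fold change of Zc3h12a in distal GA3M2 cells turned from 0.09 to -1.06 without GWTM2-Distal replicate 2. It was 1.24 without replicate 1, which is in effect the fit with sex as a block. The counts of members called higher moved as follows, given here without the share of all genes called. That share moved as well. With IL-1 at 12 h it was 0.0542% in either direction in the main fit and 3.28% higher with the replicate block. A count alone thus describes the setting as much as the members. With a fold of at least 2 also required, 1 was called in proximal and 3 in distal GS4T cells. DESeq2 called 1 in proximal GA3T, 5 with either cytokine at 12 h, 3 higher and 1 lower for IL-1 against IL-17A at 12 h, 2 and 4 for the time difference of IL-1 and IL-17A, and 3 for the segment difference of GS4T, while edgeR called 0 with IL-1 at 12 h. With the replicate block, 2 were called in proximal GA3M2, 9 with IL-1 at 12 h, 7 higher and 2 lower with IL-17A at 12 h, 0 with IL-17A at 72 h, 5 higher and 2 lower for IL-1 against IL-17A at 12 h and 0 for both time differences, and the pairing changed no other count by more than 1.5 times. The block with near-identical libraries averaged gave 9 with IL-1 at 12 h, 7 and 2 with IL-17A at 12 h and 4 and 2 for IL-1 against IL-17A. Averaging alone gave 0 with IL-1 and 1 with IL-17A at 12 h, 0 with IL-17A at 72 h and 0 for both time differences. Without the controls found at both times 0 were called in all 4 cytokine comparisons and both time differences, and with each distinct control once the time differences gave 4 and 5. With sex as a block, 1 was called in each distal goblet comparison, 4 in distal GA3T, 5 and 4 with IL-1 and IL-17A at 12 h, 1 with IL-17A at 72 h, 3 higher and 2 lower for IL-1 against IL-17A at 12 h and 2 for the time difference of IL-17A. With 1 library left out, the counts ranged from 0 to 1 in proximal GA3M2, 0 to 1 higher and 0 to 1 lower in distal GS4M2, 0 to 1 higher and 0 to 3 lower in distal GA3M2, 0 to 3 in proximal GS4T, 4 to 5 in distal GS4T, 0 to 4 in distal GA3T, 0 to 0 with IL-1 and 1 to 2 with IL-17A at 12 h, 0 to 7 with IL-17A at 72 h, 0 to 2 and 0 to 5 for the time differences of IL-1 and IL-17A, and 0 to 1 for the segment difference of GS4T. Apart from the number of libraries and genes tested, the cause was not tested. Counting error is small at these depths, and the number of libraries limits the precision: groups of 2 leave 2 residual degrees of freedom.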
